A study of Mus musculus with 19 samples.

Results

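The genes described here encode the proteins of the cytosolic ribosome. They were taken by their symbols, Rpl, Rplp or Rps followed by a number and an optional paralog suffix, which selected 79 of the 19716 genes in the deposited table. Of these, 47 belong to the large subunit (Rpl, and Rplp for the stalk) and 32 to the small subunit (Rps). All 79 were found in GENCODE M21 (GRCm38) at identical coordinates, 76 of them as protein-coding genes. The other 3, Rpl6l, Rps3a2 and Rps12l1, are annotated as processed pseudogenes with 1 exon, so reads counted on them may belong to their parent genes. Fau, Rpsa, Rack1 and Rpl36al, which are also part of the ribosome or close to it, are not taken by this naming rule and are described apart.

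Each ribosome holds a single copy of nearly every one of these proteins, arranged on ribosomal RNA in a large and a small subunit. Their messenger RNAs are short, among the most abundant in growing cells, and begin with a run of pyrimidines after an initial C, the 5' terminal oligopyrimidine (TOP) motif, through which mTORC1 and the binding protein LARP1 set how much of each message is translated and stored. Fibroblasts make ribosomes in large numbers while they divide, and the proteins that are not built into a subunit are degraded.

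RNA came from mouse embryonic fibroblasts of a line that lacks Sec24d, 1 of 4 genes for the cargo-binding SEC24 subunit of COPII, the coat of vesicles that leave the endoplasmic reticulum. Every group, controls included, carries this Sec24d knockout. Scrambled siRNA was given at 50 nM to 4 libraries and at 150 nM to 5. Another 5 received siRNA to Sec24b (the Sec24B knockdown), and the last 5 received siRNA to Sec24a, Sec24b and Sec24c at once (the triple knockdown). The SEC24 siRNA dose is labelled 50 nM, and whether that is per siRNA or the sum is unstated; treatment is labelled as 48 h, with RNA harvested in TRIzol on the day after a morning change to complete medium. The Sec24B knockdown was compared with the 50 nM control and the triple knockdown with the 150 nM control, as in the comparisons of the authors' deposited table; the labelled dose of the SEC24 siRNAs alone would not set this pairing. Whether replicates came from separate cultures is unstated, so p-values measure the spread between these samples, which may be technical.

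Values are the authors' normalised read counts, and 9101855 to 19709672 reads stood behind each library. The siRNA targets were lowered, to unlike degrees. Sec24b fell from 1114 ± 76.7 (SD, n = 4) to 479 ± 16.9 (n = 5) in the Sec24B knockdown. In the triple knockdown (n = 5 each), Sec24b fell from 1222 ± 39.0 to 509 ± 104.5 and Sec24c from 2795 ± 95.1 to 809 ± 44.0. Sec24a fell less there, from 800 ± 57.0 to 487 ± 129.75. Its log2 fold change was -0.76, and -0.47 without triple knockdown libraries 1 and 5. Sec24d transcript was still counted, with group means of 428 to 465, so these levels do not show the knockout. The summed level of 11 fibroblast marker genes was 320698 to 348061 in the triple knockdown libraries and 467843 to 567775 in their control, and the highest sum of any other cell type's list in any library was 5500.5 (2 of 4 neural markers, Map2 and Nes). In bulk RNA, a lower level per cell and fewer cells of a type cannot be told apart. The triple knockdown libraries 1 and 5 stood apart from libraries 2, 3 and 4, so counts over the ribosomal protein genes, and the log2 fold changes of the genes among them described in the triple knockdown, are given with and without them.

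The start of the transcript is what the TOP motif is read from, so the annotated starts of members that recur below are shown here. A RefSeq start (build GRCm38.p6) was available for 56 of the 79 genes. Of these, 12 (21.4%) had a C at the annotated start followed by at least 4 bases that are all C or T, searched on the gene's own strand, against 380 of 12494 genes of the table with a start (3.04%). In each line, 10 bases before the start and 20 from it on are given 5' to 3' in DNA letters. Capitals mark the pyrimidine run from the start, or the start base alone where there is no such run.
Rps27 (chr3:90213629-90213658, minus strand): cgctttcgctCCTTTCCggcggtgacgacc
Rpl35a (chr16:33056472-33056501, plus strand): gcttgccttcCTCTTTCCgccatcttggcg
Rpl38 (chr11:114668570-114668599, plus strand): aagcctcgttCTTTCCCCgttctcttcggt
Rps21 (chr2:180257369-180257398, plus strand): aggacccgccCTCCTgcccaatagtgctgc
Rplp2 (chr7:141447641-141447670, plus strand): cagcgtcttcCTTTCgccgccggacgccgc
Rps6 (chr4:86857348-86857377, minus strand): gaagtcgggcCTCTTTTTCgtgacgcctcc
Rps18 (chr17:33955646-33955675, minus strand): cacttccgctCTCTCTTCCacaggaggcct
Rps27l (chr9:66946076-66946105, plus strand): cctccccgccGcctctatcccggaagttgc
Rpl22l1 (chr3:28805498-28805527, plus strand): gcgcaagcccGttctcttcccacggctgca
Rpl7l1 (chr17:46782637-46782666, minus strand): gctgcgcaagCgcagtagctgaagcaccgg
Rpl22 (chr4:152325716-152325745, plus strand): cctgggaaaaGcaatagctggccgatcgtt
Rplp0 (chr5:115559457-115559486, plus strand): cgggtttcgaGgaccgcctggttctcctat

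The first 7 lines show core ribosomal proteins whose annotated start opens with the run, and the last 5 show starts without it, in 3 paralog genes and in the core genes Rpl22 and Rplp0. Such starts were the more common, in 44 of the 56 genes. Rpl35a, Rps21, Rps27l and Rpl22 have further annotated starts without the run. An annotated start can lie a few bases from the true one, and a start without the run says only that these letters are not at that position.

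All 79 genes were measured well above the low-value filter. Their means over the 19 libraries ran from 709 normalised counts for Rpl13a, a large-subunit protein, to 31555 for Rpl8, with a median of 7068, and 77 of the 79 exceeded 1000. The lowest value of any of them in any library was 500 (Rpl13a in Sec24B knockdown library 5). Together they held about as large a share of all normalised counts in both controls and in the Sec24B knockdown. That share was 4.26% ± 0.27 (SD, n = 4) with 50 nM scrambled siRNA, 4.36% ± 0.31 (n = 5) in the Sec24B knockdown and 4.19% ± 0.29 (n = 5) with 150 nM scrambled siRNA. In the triple knockdown it was 5.66% ± 1.17 (n = 5), with 7.52%, 4.77%, 4.96%, 4.93% and 6.12% in libraries 1 to 5. Each of these 5 values lay above the highest 150 nM control library, at 4.41%, but library 2, at 4.77%, lay below the highest Sec24B knockdown library, at 4.88%. Counting error was far smaller than these gaps: the 95% Wilson interval for library 2 was 4.75% to 4.78%, and such intervals cover counting error only.

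**Figure D1:**
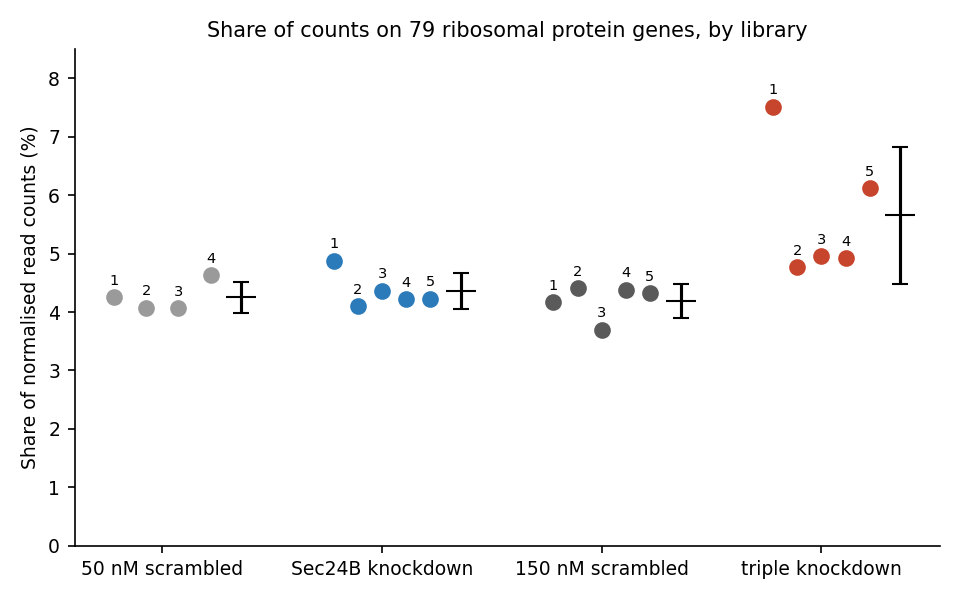
Share of all normalised read counts (%, y axis) that fell on the 79 ribosomal protein genes in each library (points, numbered by replicate), with the mean and SD of each group as bars at the right of its points. The triple knockdown libraries lie between 4.77% and 7.52%, with libraries 1 and 5 apart from the other 3.

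In the triple knockdown, ribosomal protein transcripts were higher than with 150 nM scrambled siRNA. All 79 had a positive log2 fold change, and 63 rose at an adjusted p under 0.05 in limma, while 0 fell, at an unadjusted p under 0.05 also 0 (edgeR on recovered reads called 67 higher and 0 lower). Over all genes tested, 16.8% passed as higher and 17.2% as lower in limma, and 17.0% in each direction in edgeR. The median log2 fold change of the 79 genes was 0.40, which is 1.32-fold, beside 0.01 over all 19635 genes tested, and the range ran from 0.08 to 0.67. Without libraries 1 and 5, 41 of the 63 were still called higher and no further gene was, and 0 were called lower, beside 14.8% of all genes called higher and 16.0% called lower. The median was then 0.18 (1.13-fold), with 73 genes positive and 6 negative. All 5 triple knockdown libraries lay above all 5 control libraries for 43 of the 79 genes, beside 10.1% of all genes. Libraries 2, 3 and 4 alone lay above all 5 controls for 43 as well, beside 15.3% of all genes.

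Library 1 was the highest of the 5 triple knockdown libraries for 78 of the 79 genes, and libraries 1 and 5 both lay above libraries 2, 3 and 4 for 76. Against the mean of the 9 scrambled libraries, the median of the 79 genes was 0.90 higher on the log2 scale in library 1 and 0.51 higher in library 5. In libraries 2, 3 and 4 it was 0.13, 0.18 and 0.19 higher. Control libraries scattered too: the medians ran from -0.19 in 150 nM library 3, which was the lowest of its group for 65 of the 79 genes, to 0.15 in 50 nM library 4. The shares of all genes with the same orders of libraries are not given, so these counts are not particular to the 79 genes.

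**Figure D2:**
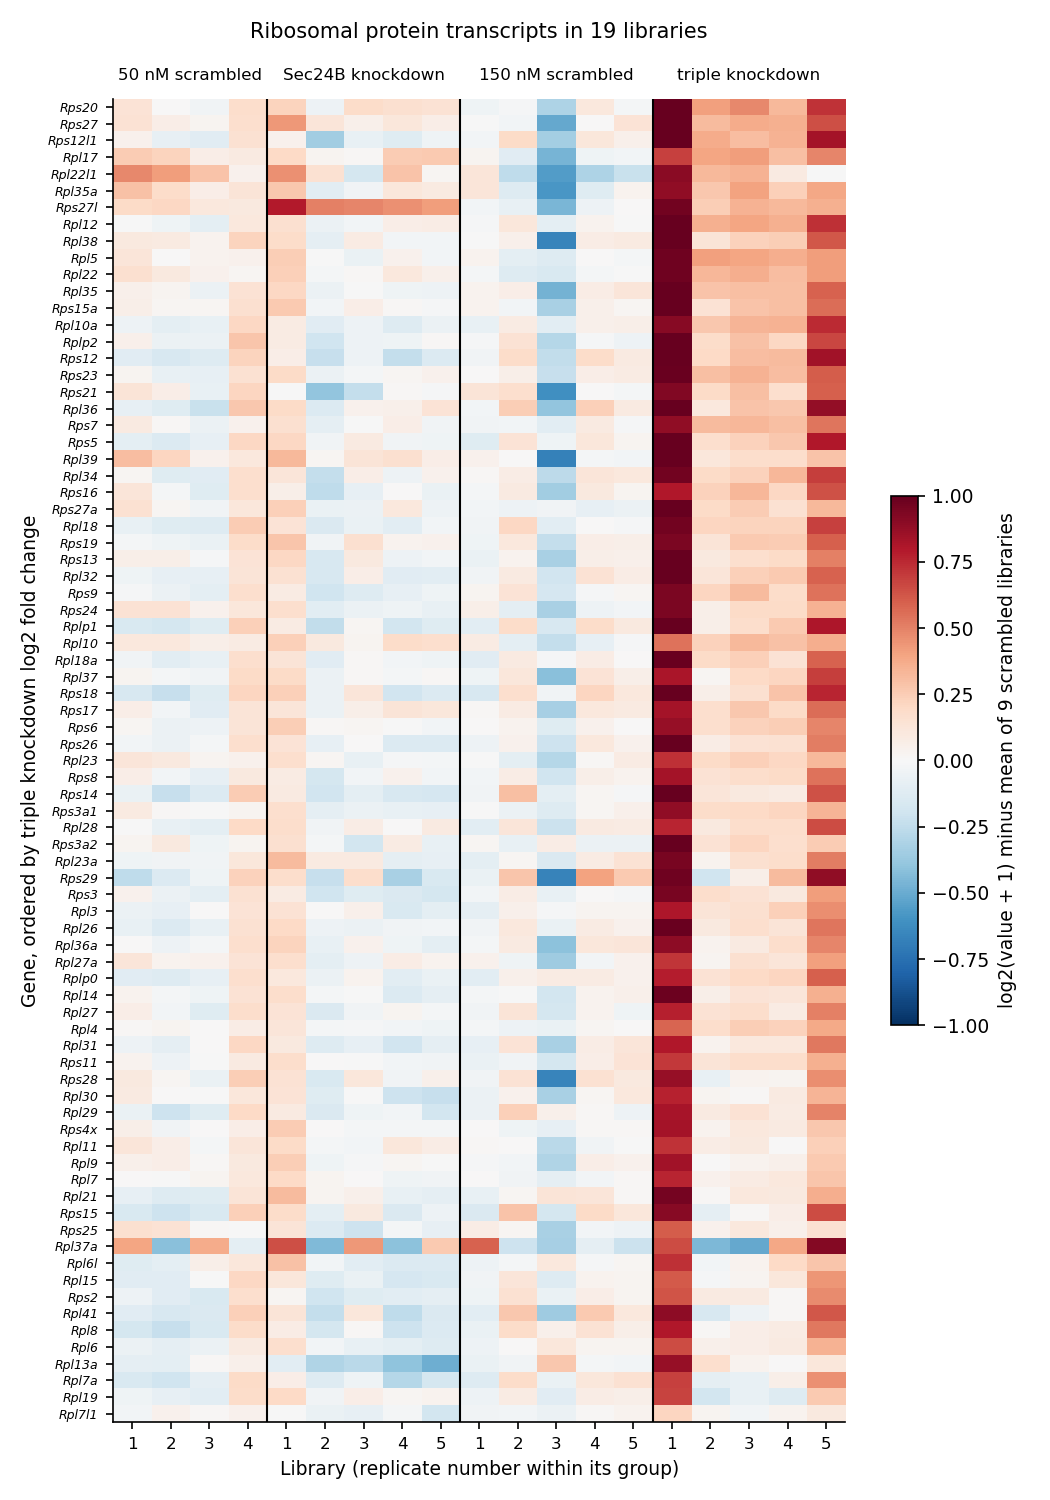
Heat map of log2(value + 1) minus the mean of the 9 scrambled libraries for the 79 genes (rows, ordered by triple knockdown log2 fold change) in the 19 libraries (columns, by group and replicate). Colours saturate at 1 in either direction. Triple knockdown library 1 is dark red and library 5 medium red over most rows, libraries 2 to 4 are pale red in the upper rows, and 150 nM library 3 is blue for many genes.

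Transcript length moved with these library differences. Among coding genes other than the 79, with a mean of at least 50 counts, the 264 with an annotated transcript under 800 bases were 0.62 higher in the median in triple knockdown library 1 and 0.29 higher in library 5. The 3571 with transcripts of 4000 bases or more were at -0.34 and -0.23 in the same libraries. In libraries 2, 3 and 4, the short transcripts were 0.04, 0.06 and 0.04 higher and the long ones at -0.04, -0.07 and -0.04. The median annotated transcript length was 871 bases for the ribosomal protein genes and 3150 bases for the coding genes. In the Sec24B knockdown, library 1 had the widest such spread, 0.20 for short transcripts and -0.13 for long ones. With the trend against length taken out of each library, an alternative chosen after the data were seen, the median of the 79 genes was 0.36 and 0.24 higher in libraries 1 and 5 and 0.09, 0.12 and 0.14 higher in libraries 2, 3 and 4. Here the log2 fold change of each of the 79 genes in the triple knockdown dropped by the same amount (-0.193), since all were shifted by the trend at their median length. In that fit 52 of the 79 genes were called higher and 0 lower, beside 16.8% and 18.1% of all genes, with a median log2 fold change of 0.20. Leaving out libraries 1 and 5 as well gave 39 higher and 1 lower (Rpl19, -0.19), beside 15.8% and 16.8% of all genes, with a median of 0.13. Of the 79 genes, 40 were called higher with all 5 libraries, without libraries 1 and 5, and after the length trend was removed. The part that transcript length and libraries 1 and 5 have in the remaining differences was not tested.

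**Figure D3:**
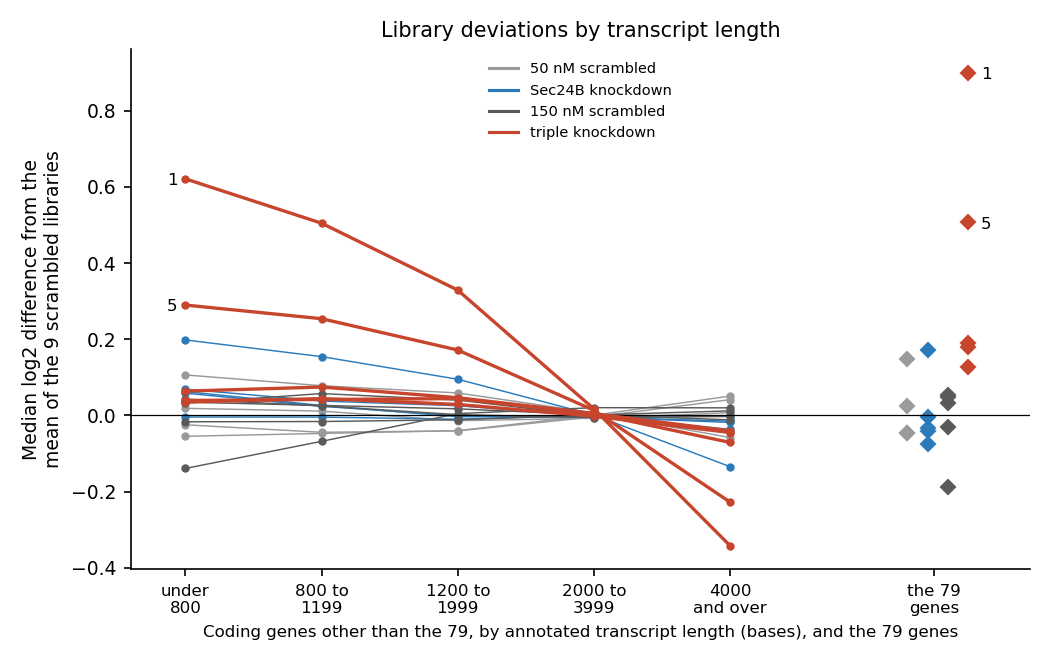
Median log2 difference from the mean of the 9 scrambled libraries (y axis) in each library for coding genes other than the 79, in 5 classes of annotated transcript length (lines, bases on the x axis), and for the 79 ribosomal protein genes (diamonds at the right). In triple knockdown libraries 1 and 5 the lines fall from 0.62 and 0.29 for transcripts under 800 bases to -0.34 and -0.23 for those of 4000 bases or more, and the diamonds of all 5 triple knockdown libraries lie above their own short-transcript value.

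Small-subunit genes were called higher in 28 of 32 cases in the triple knockdown, with a median log2 fold change of 0.43, and in 22 of 32 without libraries 1 and 5 (median 0.22). Large-subunit genes were called in 35 of 47 cases, with a median of 0.36, and in 19 of 47 without those libraries (median 0.15). The difference between the subunits was not tested.

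Rps20, a small-subunit protein that is ubiquitinated when ribosomes collide, had the largest log2 fold change. Its normalised counts were 4678, 4783, 3873, 5165 and 4735 in the 150 nM control libraries and 10685, 6385, 6713, 6030 and 7932 in the triple knockdown libraries, in replicate order. The groups did not overlap, and even the lowest triple knockdown library lay above the highest control. Rps20 rose by 0.67 ± 0.11 (log2 fold change ± SE, adjusted p = 2.7e-05), and by 0.46 without libraries 1 and 5 (adjusted p = 7.08e-06).

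Rps27, a zinc-finger protein of the small subunit, stood at 3005, 2950, 2111, 3023 and 3304 in the control and at 7126, 3744, 3894, 3848 and 4700 in the triple knockdown. Library 1 was far above the other 4, which themselves lay above every control. Rps27 rose by 0.67 ± 0.13 (adjusted p = 0.000317), and by 0.43 without libraries 1 and 5 (adjusted p = 0.000492). Rps21, another small-subunit protein, rose by 0.50 ± 0.13 on the log2 scale (adjusted p = 0.00466), from 5460 ± 1049 to 7770 ± 1853 normalised counts (n = 5 each). Without libraries 1 and 5 its log2 fold change was 0.29 at an adjusted p of 0.0496, only just under the threshold.

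Rps6, the small-subunit protein phosphorylated by S6 kinase downstream of mTORC1, rose by 0.41 ± 0.09 (adjusted p = 0.00144), from 6371 ± 283 to 8588 ± 1881. Its triple knockdown values of 11719, 7173, 7512, 7567 and 8971 all lay above the highest control value, 6590, and it rose by 0.22 without libraries 1 and 5 (adjusted p = 0.00498). Rps19, the small-subunit protein most often mutated in Diamond-Blackfan anaemia, rose from 5431 ± 504 to 7543 ± 1856, by 0.45 ± 0.11 (adjusted p = 0.00235), and by 0.22 without libraries 1 and 5 (adjusted p = 0.0184). Rps27a, which is made as a fusion with ubiquitin, had tightly grouped control values of 5763 to 5970. Its triple knockdown values were 13124, 6952, 7273, 6765 and 7636, none of which overlapped the control, and it rose by 0.46 ± 0.12 (adjusted p = 0.00344), or by 0.25 without libraries 1 and 5 (adjusted p = 0.0017).

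Among large-subunit genes, Rpl17, whose protein lines the peptide exit tunnel, had the largest log2 fold change, 0.58 ± 0.08 (adjusted p = 5.66e-06). Its normalised counts were 2987, 2708, 2122, 2840 and 2886 in the 150 nM control and 4719, 3855, 3926, 3616 and 4118 in the triple knockdown. The groups did not overlap, and library 1 stood less far from the others than for most of the 79 genes. The log2 fold change without libraries 1 and 5 was 0.50 (adjusted p = 1.15e-05). Rpl12, a protein at the base of the stalk, rose from 12026 ± 628 to 18052 ± 3891, by 0.56 ± 0.10 (adjusted p = 4.86e-05), and all 5 triple knockdown libraries, from 15274 to 24125, lay above the highest control at 12916. Rpl12 rose by 0.36 without libraries 1 and 5 (adjusted p = 1.59e-05). Rpl35a, a large-subunit protein also mutated in Diamond-Blackfan anaemia, rose from 1446 ± 252 to 2153 ± 430, by 0.57 ± 0.11 (adjusted p = 0.000299), and Rpl38, known from mice for its part in translating Hox messages, rose from 3636 ± 697 to 5428 ± 1670, by 0.56 ± 0.14 (adjusted p = 0.00341). With those libraries left out, Rpl35a rose by 0.44 (adjusted p = 0.000771) and Rpl38 by 0.29 (adjusted p = 0.0304).

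The 2 proteins that join 5S ribosomal RNA in a particle able to hold MDM2 when it is free differed in what passed. Rpl5 stood at 8412, 7662, 7490, 8206 and 8108 in the 150 nM control and at 16095, 10905, 10772, 10523 and 10929 in the triple knockdown. Libraries 2 to 5 of the triple knockdown lay close together, above every control, and library 1 stood apart from them. Rpl5 rose by 0.55 ± 0.09 (adjusted p = 2.36e-05) and by 0.43 without libraries 1 and 5 (adjusted p = 1.11e-06). Rpl11 stood at 5667, 5659, 4673, 5510 and 5608 against 9285, 5921, 6016, 5647 and 6634, and the 2 groups overlapped. It rose by 0.28 ± 0.09 (adjusted p = 0.0217) with all 5 libraries, and its log2 fold change without libraries 1 and 5 was 0.12 (adjusted p = 0.166). The difference between Rpl5 and Rpl11 was not tested.

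The stalk is the flexible arm of the large subunit that recruits the GTPase elongation factors, and it is built from Rplp0, Rplp1 and Rplp2. Rplp2, at 6942 ± 714 in the control and 10194 ± 2823 in the triple knockdown, rose by 0.52 ± 0.12 (adjusted p = 0.00138), and by 0.27 without libraries 1 and 5 (adjusted p = 0.00732). Rplp0 rose from 26881 ± 1401 to 34908 ± 7253, by 0.36 ± 0.10 (adjusted p = 0.00755), and Rplp1 from 18497 ± 2037 to 25635 ± 7877, by 0.43 ± 0.14 (adjusted p = 0.019). Without libraries 1 and 5, the log2 fold changes of Rplp0 and Rplp1 were 0.15 (adjusted p = 0.0978) and 0.12 (adjusted p = 0.325). In libraries 2, 3 and 4, Rplp1 stood at 18657, 20168 and 21473 within or just above a control range of 16029 to 20332.

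In all, 22 genes were called higher only with libraries 1 and 5 in the fit. The largest of these by log2 fold change were Rpl36 (0.49), Rplp1 (0.43), Rpl37 (0.42), Rps18 (0.42), Rps26 (0.40) and Rps14 (0.39). Without the 2 libraries these genes had log2 fold changes of 0.19, 0.12, 0.18, 0.11, 0.14 and 0.07, and adjusted p-values from 0.126 for Rpl37 to 0.618 for Rps14. Rps18 shows the pattern: its triple knockdown values were 31124, 14757, 15850, 17271 and 24050, and its control ran from 12730 to 16477.

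The 16 genes that did not pass in the triple knockdown included Rpl8, the most abundant of the 79, and Rpl13a, the least abundant. Rpl8, a large-subunit protein near the peptidyl transferase centre, stood at 52085, 30098, 31290, 31701 and 43088 in the triple knockdown, and libraries 2, 3 and 4 lay inside its control range of 28484 to 34005. Its log2 fold change was 0.22 ± 0.12 (adjusted p = 0.16) with all 5 libraries and -0.02 without libraries 1 and 5. Rpl13a, which in human cells is known also as part of an interferon-induced translation inhibitor, stood at 1290, 793, 723, 705 and 764 against a control of 672 to 848, and did not pass (log2 fold change 0.22 ± 0.12, adjusted p = 0.162; 0.05 without libraries 1 and 5, adjusted p = 0.711).

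**Figure D4:**
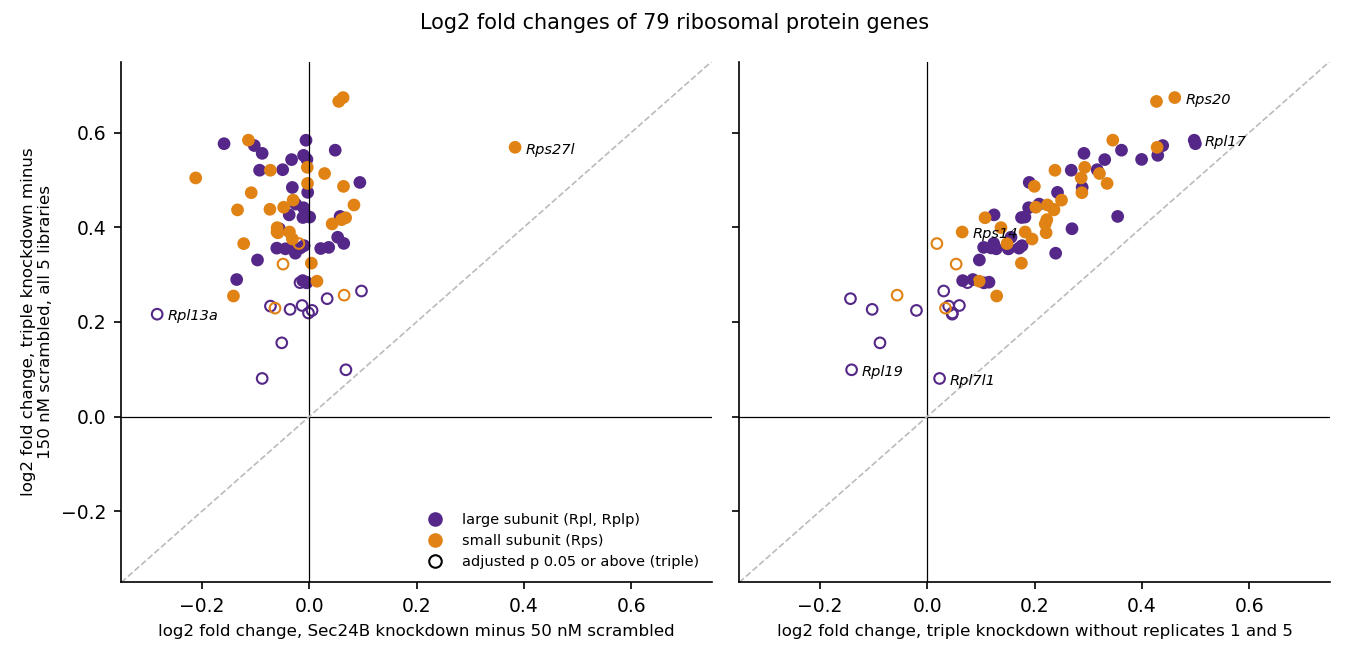
Log2 fold changes of the 79 genes in the triple knockdown with all 5 libraries (y axis) against those in the Sec24B knockdown (left) and those in the triple knockdown without libraries 1 and 5 (right). Filled points passed in the triple knockdown with all 5 libraries and open points did not; the dashed line marks equal values. The points lie above 0 on the y axis throughout, while on the Sec24B axis Rps27l, at 0.38, stands apart from the rest, and at the right most points lie left of the dashed line.

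After the Sec24B knockdown, 1 of the 79 genes passed, Rps27l, which rose, and 0 fell in limma and in edgeR, with 1 lower at an unadjusted p under 0.05 in each. Over all genes, 7.53% rose and 7.08% fell in this comparison. The median log2 fold change of the 79 genes was -0.02, beside 0.01 over all genes, and 76 of them lay between -0.2 and 0.2. For 75 of the 79, the 95% interval of the Sec24B effect lay wholly below the triple knockdown median of 0.40. That median was 0.18 without triple knockdown libraries 1 and 5, and the intervals were not set against this lower value. The genes just outside the band were Rpl13a at -0.28 ± 0.12 (adjusted p = 0.135), which was lower in every Sec24B knockdown library (500 to 655) than in every 50 nM control library (659 to 731), a separation seen in 9.13% of all genes, and Rps21 at -0.21 ± 0.14 (adjusted p = 0.374). When triple knockdown libraries 1 and 5 were left out of the shared estimate of spread, Rpl13a was called lower (adjusted p = 0.00427), beside 11.0% of all genes.

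Rps27l is a paralog of Rps27 and, in human and mouse cells, a known target of p53. Its normalised counts were 1932, 1959, 1819 and 1814 with 50 nM scrambled siRNA and 2939, 2410, 2380, 2322 and 2270 in the Sec24B knockdown. All 5 knockdown libraries lay above all 4 controls, and library 1 stood above the other 4; of the 79 genes, this was the only one whose Sec24B libraries all lay above their controls, beside 9.23% of all genes. The log2 fold change was 0.38 ± 0.11 (adjusted p = 0.0212). The call was lost when 50 nM library 3, 50 nM library 4 or Sec24B library 1 was left out, with log2 fold changes of 0.37, 0.37 and 0.32. In the triple knockdown Rps27l rose from 1569 ± 189 to 2355 ± 538, by 0.57 ± 0.11 (adjusted p = 0.000152), and by 0.43 without libraries 1 and 5 (adjusted p = 9.26e-05). Its 2 effects differed by 0.19 ± 0.15 (adjusted p = 0.478), and by 0.04 without those libraries (adjusted p = 0.831).

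Relative to its parent Rps27 in the same library, Rps27l was highest in the Sec24B knockdown. The Rps27l count was 73.2% ± 2.0 (SD, n = 5; 71.4% to 76.3%) of the Rps27 count there, against 58.3% ± 3.5 (n = 4; 53.7% to 62.0%) in the 50 nM control, and the groups did not overlap. The same percentage was 54.8% ± 2.5 in the 150 nM control (51.5% to 58.6%) and 51.4% ± 4.7 in the triple knockdown (46.0% to 55.4%), which overlapped. These percentages are ratios of counts and are compared between groups; with annotated transcripts of 345 bases for Rps27 and 499 bases for Rps27l, they are not ratios of levels per length. No test was run on the percentages. Genes of the p53 link were measured beside them: Trp53 itself stood at 3977 ± 88.5 and 4165 ± 145 in the 50 nM control and the Sec24B knockdown (log2 fold change 0.07 ± 0.05, adjusted p = 0.446). Cdkn1a, the p53 target that arrests the cell cycle, stood at 5034 ± 332 and 5245 ± 74.0 (0.06 ± 0.07, adjusted p = 0.651), and Mdm2, the ubiquitin ligase of p53 and also its target, fell by 0.19 on the log2 scale (adjusted p = 0.0147). Trp53 rose in the triple knockdown (0.16 ± 0.05, adjusted p = 0.012) and Mdm2 fell (-0.18 ± 0.05, adjusted p = 0.00499). Without libraries 1 and 5 the adjusted p of Trp53 was 0.0506. Mdm2 differed more between the control doses, at 8115 ± 233 with 50 nM and 6544 ± 247 with 150 nM scrambled siRNA (-0.31 ± 0.05, adjusted p = 0.00029).

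Rpl22l1, a paralog of Rpl22 that can take its place in the large subunit, differed between the control doses. Its normalised counts were 1221, 1166, 1063 and 900 with 50 nM scrambled siRNA and 950, 734, 592, 705 and 751 with 150 nM. The ranges overlapped through 50 nM library 4 and 150 nM library 1. It fell by 0.55 on the log2 scale between the doses (SE 0.15, adjusted p = 0.0208), and Rpl17 fell by 0.28 (SE 0.09, adjusted p = 0.047). These were the only 2 of the 79 genes to pass between the control doses, where 4.1% of all genes passed as lower and 4.75% as higher. Both calls were lost when 50 nM library 1, 50 nM library 2 or 150 nM library 3 was left out, and that of Rpl17 also in edgeR.

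In the triple knockdown, Rpl22l1 stood at 1631, 1097, 1110, 932 and 870, of which the lowest 2 lay under the highest 150 nM control value. It rose by 0.58 ± 0.14 against that control (adjusted p = 0.00219), and by 0.50 without libraries 1 and 5 (adjusted p = 0.00124), but its mean, 1128 ± 300, was close to the 1088 ± 141 of the 50 nM control. With both controls pooled, the log2 fold change was 0.33 and did not pass. Rpl22 itself rose from 2917 ± 144 to 4316 ± 936, by 0.54 ± 0.09 (adjusted p = 3.35e-05), and by 0.40 without libraries 1 and 5 (adjusted p = 1.45e-06). The Rpl22l1 count was 33.6% ± 3.2 of the Rpl22 count in the 50 nM control, 30.3% ± 3.5 in the Sec24B knockdown, 25.5% ± 3.8 in the 150 nM control and 26.1% ± 3.0 in the triple knockdown.

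Rpl7l1, a paralog of Rpl7 known as a nucleolar assembly factor of the large subunit, had the smallest log2 fold change of the 79 genes in the triple knockdown with all 5 libraries. Its counts were 2012, 2029, 1988, 2083 and 2120 in the 150 nM control and 2392, 2100, 2026, 2113 and 2206 in the triple knockdown, with a log2 fold change of 0.08 ± 0.05 (adjusted p = 0.251). It was 0.02 without libraries 1 and 5 (adjusted p = 0.775), where Rps29 and Rpl8 lay nearer to 0. The groups overlapped, and even library 1 was only a little above the rest. Rpl7 stood at 10999 to 11761 in the control and at 19823, 12013, 12403, 12600 and 14167 in the triple knockdown, without overlap. It rose by 0.28 ± 0.09 (adjusted p = 0.0209), and its log2 fold change without libraries 1 and 5 was 0.11 (adjusted p = 0.156).

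**Figure D5:**
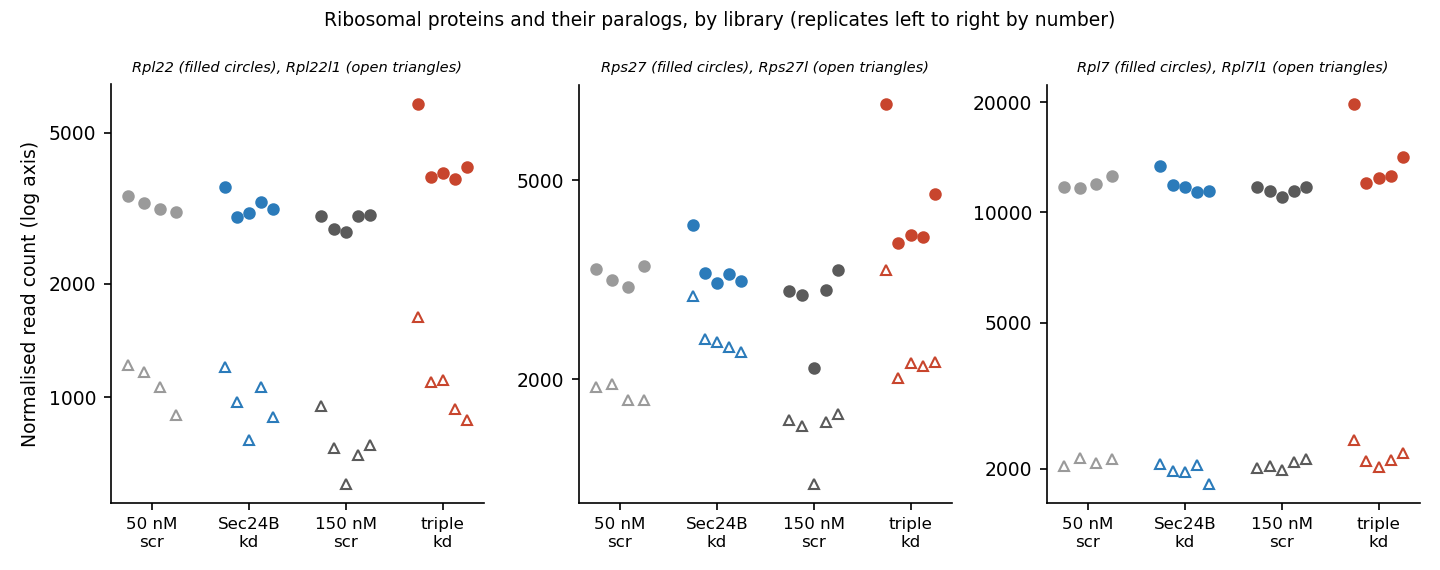
Normalised read counts (log axis) of Rpl22, Rps27 and Rpl7 (filled circles) and of their paralogs Rpl22l1, Rps27l and Rpl7l1 (open triangles) in each library of the 50 nM scrambled (scr), Sec24B knockdown (kd), 150 nM scrambled and triple knockdown groups, replicates ordered by number. Rps27l is higher in every Sec24B knockdown library (2270 to 2939) than in every 50 nM control (1814 to 1959), while Rpl7l1 lies between 1819 and 2392 in all 19 libraries.

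The effects of the knockdowns were also compared with each other, each taken against its own control. The triple effect exceeded the Sec24B effect at an adjusted p under 0.05 for 30 of the 79 genes and fell short of it for 0, beside 7.44% and 8.38% of all genes. The median difference was 0.42 on the log2 scale, and 0.19 without triple knockdown libraries 1 and 5, where 27 genes passed beside 9.45% of all genes. Rpl22l1 had the largest difference, 0.74 ± 0.20 (adjusted p = 0.0141), then Rps21 at 0.72 ± 0.20 (adjusted p = 0.0127), the processed pseudogene Rps12l1 at 0.70 ± 0.17 (adjusted p = 0.00625), Rpl35a at 0.67 ± 0.17 (adjusted p = 0.00578) and Rpl38 at 0.64 ± 0.21 (adjusted p = 0.0344). These differences, without libraries 1 and 5, were 0.66, 0.50, 0.46, 0.54 and 0.38 in the same order, and that of Rpl38 did not pass (adjusted p = 0.0549). The number of genes that passed was 19 without 50 nM library 4 and 48 without triple knockdown library 2. Shares of all genes called in these fits are not given.

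The authors' deposited table holds their own fold changes and adjusted p-values for the same genes. In the authors' deposited table, 66 of the 79 genes were higher and 0 lower in the triple knockdown against the 150 nM control at an adjusted p under 0.05, beside 18.8% and 18.6% of all genes with an adjusted p there. In the authors' deposited table, 1 was higher and 0 lower in the Sec24B knockdown against the 50 nM control, beside 10.6% and 10.7% of all genes. In the authors' deposited table, 0 were higher and 2 lower with 150 against 50 nM scrambled siRNA, beside 8.07% and 6.79% of all genes.

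The TOP run at the annotated start was set beside the fold changes. The 12 genes with the run had a median log2 fold change of 0.51 in the triple knockdown, and 11 of them were called higher. The 44 genes with a known start and no run had a median of 0.38, and 33 were called higher. The medians without libraries 1 and 5 were 0.28 and 0.17, with 8 of 12 and 21 of 44 called higher. These are descriptions of 12 and 44 genes that share their libraries, and the difference was not tested.

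Other ribosome genes and TOP messages were examined as lists, to be read against the shares of all genes called, which were 16.8% higher and 17.2% lower in the triple knockdown and 7.53% and 7.08% in the Sec24B knockdown. Among ribosomal genes outside the naming rule, Fau, made as a fusion with a ubiquitin-like protein, and Rack1, a scaffold on the small subunit, rose in the triple knockdown, by 0.42 ± 0.12 (adjusted p = 0.0107) and 0.42 ± 0.10 (adjusted p = 0.00196). Without libraries 1 and 5, Rack1 passed (0.21, adjusted p = 0.0166) and Fau did not (0.15, adjusted p = 0.181). Rpsa did not pass (log2 fold change 0.22 ± 0.13, adjusted p = 0.215), and Rpl36al had group means of at most 19.9 counts. Of 24 TOP messages that encode no ribosomal protein, 18 rose and 0 fell in the triple knockdown (median 0.30), and 17 rose and 1 fell without libraries 1 and 5 (median 0.24). The highest were the snoRNA host genes Snhg12 (1.76 ± 0.12, adjusted p = 1.92e-11), Gas5 (1.22 ± 0.09, adjusted p = 6.58e-11) and Snhg1 (0.96 ± 0.10, adjusted p = 5.96e-08), non-coding transcripts that translating ribosomes expose to decay, which without libraries 1 and 5 rose by 1.61, 1.07 and 0.85. After the Sec24B knockdown 0 of the 24 rose and 2 fell in the reported fit, a share close to that of all genes there: Eef1g, a subunit of elongation factor 1, from 12668 ± 700 to 7482 ± 425 (-0.76 ± 0.07, adjusted p = 6.15e-08), and Eif4b, which assists the initiation helicase (-0.17 ± 0.05, adjusted p = 0.0283). The share was larger in other fits. Without triple knockdown libraries 1 and 5, 6 of the 24 fell and 0 rose, beside 11.0% of all genes called lower. With the length trend removed, 7 fell and 0 rose, beside 8.74% called lower.

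Of 40 ribosome biogenesis factors, 28 rose and 1, Rrp1b, fell in the triple knockdown (median 0.26), and 24 rose and 1 fell without libraries 1 and 5 (median 0.22). After the Sec24B knockdown 0 rose and 15 fell (median -0.18), and the difference of the effects passed as positive for 34 of the 40. The factors with the smallest adjusted p in the triple knockdown were Nop14 (0.51 ± 0.06), which works on the small-subunit precursor, Rrp12 (0.55 ± 0.07), a maturation factor of pre-ribosomes, and Wdr74 (0.55 ± 0.07), which works on the large-subunit precursor. In the Sec24B knockdown they were the nucleolar helicase Ddx21 (-0.41 ± 0.06), the RNA methyltransferase Nop2 (-0.39 ± 0.06) and Rrp1b (-0.38 ± 0.06). Rrp1b fell in the triple knockdown as well (-0.27 ± 0.06, adjusted p = 0.00118), and Ddx21 did not pass (-0.03 ± 0.05, adjusted p = 0.765). Nop2 stood at 2720 ± 82.3 in the 150 nM control and 3143 ± 157 in the triple knockdown, where it rose (0.21 ± 0.05, adjusted p = 0.00403), and at 2350 ± 188 and 1791 ± 69.1 in the 50 nM control and the Sec24B knockdown.

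Of 13 genes for ribosomal RNA transcription, 9 rose and 0 fell in the triple knockdown, among them Myc (0.71 ± 0.06, adjusted p = 3.45e-10), a transcription factor that drives ribosome synthesis, and the RNA polymerase I selectivity factor Taf1a (0.64 ± 0.08). Without libraries 1 and 5, 5 rose and 0 fell. After the Sec24B knockdown 1 rose and 5 fell, among them Polr1a, the largest subunit of RNA polymerase I (-0.32 ± 0.07, adjusted p = 0.00411). Of 12 chaperones and importers of ribosomal proteins, 5 rose and 2 fell in the triple knockdown, 4 rose and 0 fell without libraries 1 and 5, and 0 rose and 4 fell in the Sec24B knockdown. Those that fell in the latter included the importin Ipo7 (-0.52 ± 0.10, adjusted p = 0.000735), an importer of Rpl5 and Rpl11, their chaperone Heatr3 (-0.18 ± 0.05, adjusted p = 0.0193) and the Rpl3 chaperone Grwd1 (-0.31 ± 0.09, adjusted p = 0.0277).

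Among 20 regulators of mTORC1 and TOP messages, 7 rose and 5 fell in the triple knockdown, 7 rose and 3 fell without libraries 1 and 5, and 8 rose and 1 fell with the length trend removed. Eif4ebp1, the translation repressor inactivated by mTORC1, rose from 2097 ± 72.4 to 4964 ± 1036 (1.22 ± 0.09, adjusted p = 6.68e-11), Sesn2, a stress-induced inhibitor of mTORC1, from 1218 ± 143 to 2464 ± 195 (1.02 ± 0.07, adjusted p = 1.76e-11), and Larp1, the TOP-binding protein, from 4500 ± 138 to 6188 ± 250 (0.46 ± 0.05, adjusted p = 5.46e-08). With libraries 1 and 5 left out, these genes rose by 1.03 (Eif4ebp1), 0.95 (Sesn2) and 0.45 (Larp1). Those that fell in the triple knockdown included Eif4ebp2 (-0.25 ± 0.05, adjusted p = 0.000302). After the Sec24B knockdown 4 of the 20 rose and 3 fell. Sesn2 and Larp1 also rose after the Sec24B knockdown, by 0.48 ± 0.07 (adjusted p = 4.74e-05) and 0.29 ± 0.05 (adjusted p = 0.000331). Larp4 (-0.42 ± 0.10, adjusted p = 0.00473) and Larp4b (-0.32 ± 0.06, adjusted p = 0.00125) fell there. Of 15 measured genes of ribosome quality control and ribosome degradation, 6 rose and 5 fell in the triple knockdown, and 5 rose and 2 fell without libraries 1 and 5. Zfp598, the ubiquitin ligase that senses collided ribosomes, rose by 0.64 ± 0.06 (adjusted p = 2.28e-08), and by 0.60 without those libraries.

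Mitochondrial ribosomal proteins, which are also encoded in the nucleus by short messages but without a role in cytosolic translation, gave 42 higher and 1 lower of 74 in the triple knockdown (median 0.25). Without libraries 1 and 5 they gave 28 higher and 5 lower (median 0.13), and after the length trend was removed 33 higher and 8 lower (median 0.17). Of the 13 genes encoded in mitochondrial DNA, 0 passed in that comparison in limma or edgeR, and 2 were lower at an unadjusted p under 0.05 in each. Their median was -0.11, and without libraries 1 and 5 it was -0.04, with 0 passing. After the length trend was removed 8 fell, beside 18.1% of all genes, with a median of -0.26. That fit shifts each of these genes by the trend at its own annotated length, so the 8 calls depend on this shift. Pseudogenes named for ribosomal proteins gave 66 higher and 0 lower of 157 (median 0.36), and 33 higher and 1 lower without libraries 1 and 5. After the length trend was removed they gave 29 higher and 0 lower of 157 (median 0.13). In that fit 16.8% of all genes were called higher and 18.1% lower, so the share called higher was close to that of all genes. How the authors' counting shared reads between these near-identical copies and the 79 genes is not given in the sources used here, so each gene's level is uncertain by an unknown part of its pseudogene reads. The pseudogenes held 0.41% ± 0.02 of all normalised counts in the 150 nM control and 0.55% ± 0.11 in the triple knockdown (n = 5 each).

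The genes outside the naming rule whose log2 values followed the mean of the 79 genes most closely over the 19 libraries were processed pseudogenes, led by Gm10154 (Pearson r = 0.98). Of these, Rpl10a-ps1 and Rps6-ps4 are named for ribosomal proteins, and the parents of Gm10154, Gm11518 and Gm6136 were not looked up. Among coding genes they were Banf1 (r = 0.97), Sod1, Psmb4 and Eif3i (r = 0.96 to 0.97) and Fau (r = 0.96). These are descriptions over 19 libraries that share their groups and their depth, and libraries 1 and 5 of the triple knockdown weigh heavily in them.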

How the data were processed

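RNA-seq of 19 libraries was analysed from a table of 19716 genes. The values deposited by the authors are a normalised signal: in every library they are whole multiples of what 1 read is worth there (0.736 to 1.638), which gave back whole reads for 100% of values within 0.0055. The log2 fold changes deposited by the authors and the adjusted p-value columns deposited beside them were used only as a comparison. According to the submitters' processing notes, the tools included FastQC 0.10.1, Trimmomatic 0.27, Partek 6.6 and TopHat2 2.0.8, and the builds listed are human (hg19 and GRCh37). The gene IDs are mouse: 19666 were found in GENCODE M21 (GRCm38), 99.0% of them at identical coordinates. The read counter, the size factor method, strandedness and the treatment of reads that map to several places are not given in the sources used here, which bears on genes with near-identical pseudogenes. Annotated transcript lengths are those of 1 principal transcript per gene.

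A limma-trend model (limma 3.58.1 under R 4.3.3) of log2(value + 1) held 1 mean per group over all 19 libraries. It covered 19635 genes, those reaching a value of 1 in 4 or more libraries. Since the values are not raw counts, limma rather than edgeR gave the reported tests. P-values are two-sided, and the Benjamini-Hochberg adjustment ran across every gene fitted, with a threshold of 0.05. The ± after a level is the SD and after a log2 fold change the SE of the fit. The fit was tested on simulated data. No 2 libraries of a group agreed within sampling noise (chi-square per degree of freedom at least 1.8). Alternatives covered the pseudocount, the filter, rescaling, the libraries and controls in the fit, a replicate block, sample weights, leaving out libraries, and the count tools DESeq2 1.42.0, limma-voom and edgeR 4.0.16 on the recovered reads. The fit with each library's trend against transcript length removed (lowess over other coding genes, the ribosomal protein genes all shifted by the trend at their median length) was added after the data were seen.

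The genes, the lists and the tests were chosen with earlier results of these data known. Named genes were, per knockdown, up to 8 higher and 8 lower genes with the largest log2 fold change among those that passed. They were up to 5 per direction for the control doses and for the difference of effects. Paralogs with their parents, the stalk proteins, Rps6, Rpl5, Rpl11, Rps27a, Rpl13a, Rps19, the most and least abundant genes and up to 6 genes whose call changed without triple knockdown libraries 1 and 5 were also named. From each list, up to 3 genes per knockdown with the smallest adjusted p were named, though some of them are not described. Trp53 and Cdkn1a for the Sec24B knockdown, Mdm2 for the control doses, Rpsa, Rpl36al, Rpl19, Rps29, Larp4, Larp4b and Eif4ebp2 were named outside this rule, after their values were seen. 1 gene of the list of ribosomal genes outside the naming rule is not reported here. Sequences are from RefSeq tables of GRCm38.p6. Python 3.11.15 served for tables (numpy 2.4.6, pandas 2.3.3) and figures (matplotlib 3.10.9).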

Additional observations from a re-analysis of the deposited data

Results flagged for a closer look

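Single libraries stood far from the rest of their group for several of the named genes, by Dixon's gap test at 95%, which chance meets in about 1 of 20 groups. Over all 79 genes this happened in 13, 16, 16 and 18 genes for the 50 nM control, the Sec24B knockdown, the 150 nM control and the triple knockdown. The 79 genes share their libraries, so 1 library can set many of these counts, and they cannot be read against that rate. The share over all genes is not given. In the triple knockdown the library apart was library 1 each time, with normalised counts of 9285 for Rpl11, 1290 for Rpl13a, 5978 for Rpl22, 2900 for Rpl35a, 16095 for Rpl5, 19823 for Rpl7, 7126 for Rps27, 13124 for Rps27a and 3312 for Rps27l. In the 50 nM control it was library 4, with 33897 for Rpl8, 29425 for Rplp0, 21112 for Rplp1, 6192 for Rps19 and 11495 for Rps26. In the Sec24B knockdown it was library 1, with 9345 for Rpl37, 13396 for Rpl7, 4067 for Rps27, 2939 for Rps27l and 7601 for Rps6, and library 2, low at 4638 for Rps20. In the 150 nM control library 3 was low for Rpl11 (4673), Rpl38 (2402), Rps27l (1236) and Rps6 (5887) and high for Rpl13a (848), library 1 was low for Rplp0 (24468) and library 2 was high for Rps14 (12390).

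The triple effect and the Sec24B effect differed in limma's test of the difference, on the log2 scale, for 13 of the named genes. The differences were 0.51 for Rpl12, 0.50 for Rpl13a, 0.59 for Rpl17, 0.55 for Rpl22, 0.74 for Rpl22l1, 0.67 for Rpl35a, 0.64 for Rpl38 and 0.56 for Rpl5. They were 0.61 for Rplp2, 0.70 for Rps12l1, 0.61 for Rps20, 0.72 for Rps21 and 0.61 for Rps27. In each of them the triple effect was the more positive. These values are with triple knockdown libraries 1 and 5 in the fit. Without those libraries the median difference over the 79 genes was 0.19 rather than 0.42. Rpl13a passed in neither knockdown against its own control in the reported fit.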

How the results depend on the processing

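For the named genes, 1182 of the alternative fits kept direction and call, 94 lost the call, 8 gained it and 5 changed sign. The sign changes, all in the triple knockdown, were Rpl8 at -0.02 without triple knockdown libraries 1 and 5 and -0.0708 with the length trend removed as well, Rpl7l1 at -0.11 with the length trend removed and -0.0277 with both, and Rpl13a at 0.00 (-0.0042) with both. Removing the length trend lowers all 79 log2 fold changes in the triple knockdown by 1 constant (-0.193 with all libraries, -0.051 without libraries 1 and 5), so the sign changes of Rpl7l1 and Rpl13a, which lay near 0, follow from its construction. The cause of that of Rpl8 was not tested.

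For the triple knockdown, 63 genes were called higher, 41 without libraries 1 and 5, and 39 higher and 1 lower (median 0.13) with the length trend removed as well. The other settings gave 48 (only the groups compared) to 70 (equal totals), with 50 under sample weights, which were 0.16 for library 1 and 0.42 for library 5. Of all genes, 13.3% were called higher with only the groups compared and 17.6% under sample weights. For the Sec24B knockdown, 0 genes were lower in the reported fit, 1 with only the groups compared, 1 with pooled controls, 2 with sample weights, 1 without libraries 1 and 5, 6 with the length trend removed and 14 with both. The shares of all genes called lower were 7.08% in the reported fit, 9.92% with only the groups compared and 13.2% with sample weights. They were 11.0% without libraries 1 and 5, 8.74% with the length trend removed and 11.4% with both. Between the control doses, 2 genes were lower, 1 with a pseudocount of 0.1, 7 with sample weights, 1 in edgeR, 7 without libraries 1 and 5, 6 with the length trend removed and 10 with both. In the higher direction there was 1 with sample weights and 1 with both, beside 11.8% and 10.3% of all genes. All-gene shares called lower were 4.1% in the reported fit, 11.6% with sample weights and 4.12% in edgeR. They were 8.05% without libraries 1 and 5, 6.05% with the length trend removed and 8.85% with both. For the difference of effects, 30 genes were higher, 61 with pooled controls and 46 with the length trend removed, and 1 was lower with the length trend removed and libraries 1 and 5 left out. Of all genes, 7.44% were higher in the reported fit and 8.96% with the length trend removed, and 11.3% were lower with both. The median difference of 0.42 became 0.22 with sample weights, 0.19 without libraries 1 and 5 and 0.20 with both. For equal totals, pooled controls and a pseudocount of 0.1, shares of all genes called are not given, so those counts cannot be read against all genes.

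Leaving out 1 library at a time gave 52 to 71 genes higher and 0 lower in the triple knockdown (median 0.28 to 0.47), 0 to 1 higher and 0 to 1 lower in the Sec24B knockdown (-0.07 to 0.02), 0 higher and 0 to 5 lower between the control doses (-0.05 to 0.01), and 19 to 48 higher and 0 lower for the difference (0.29 to 0.48). The 5 lower genes between doses came without triple knockdown library 1. The share of counts was 1.46 percentage points higher in the triple knockdown than in its control, 1.00 to 1.69 with 1 library left out and 0.69 without libraries 1 and 5. Replicate numbers were not treated as pairs in the reported fit. Deviations of same-numbered libraries had correlations of -0.357 to 0.125 between each knockdown and its control, -0.235 to 0.322 between the controls and -0.184 to 0.575 between the knockdowns, so that in no case were all of them above 0.1. The highest, 0.575, was that of library 1 of the 2 knockdowns. So few correlations cannot exclude a batch shared by some same-numbered libraries. With a replicate block, 64 genes were higher in the triple knockdown (median 0.40), 1 in the Sec24B knockdown and 37 for the difference, and 3 were lower between the doses. Shares of all genes called are not given for the replicate block or for the fits with 1 library left out. Their counts therefore cannot be read against all genes.

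The lowest value of any of the 79 genes in any library was 500 normalised counts, far above the low-value filter. Counting error was not set beside the spread between libraries gene by gene. Reads shared with pseudogenes, the length trend in triple knockdown libraries 1 and 5, and 4 or 5 libraries per group of unstated independence limit what the calls can carry.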
